A study of Mus musculus with 20 samples.

Results

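The comparison sets the RNA of iron-poor mouse duodenum, an absorptive tissue, beside that of iron-poor mouse liver, a storage and secretory tissue, as both were recovered in control immunoprecipitations. Its members are the 4 arrays whose titles name an IRP1 control immunoprecipitation of duodenum or of liver, 2 for each tissue, of 20 arrays in all. The series used iron regulatory protein 1 (IRP1), an RNA-binding protein, to pull RNA from 5 tissues. The controls left the recombinant protein out, so they show what RNA was carried through the reaction and the antibody step without it. How this carried RNA relates to the total RNA of the tissue was not tested.

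Both groups came from C57BL6/J mice. They were fed a diet with less than 10 mg of iron per kg for 21 days from weaning. RNA of a tissue was pooled, 50 µg of total RNA entered each reaction with a rabbit polyclonal antibody against IRP1, and about 120 ng of the recovered RNA was amplified in 2 rounds and hybridised to an Affymetrix mouse genome array. The source field of the control samples also names recombinant IRP1, and the titles, which say control, were followed. RNA was pooled by tissue and no label ties an array to an animal, so p-values rest on the spread between arrays. The labels state that female and male mice were mixed. The Y-linked transcript Eif2s3y nevertheless lay between 3.09 and 3.37 (log2 signal) on all 12 arrays of the iron-poor tissues, against 8.69 to 9.30 on the 4 bone marrow arrays, so Y-linked RNA was at the lower end of the scale in both tissues compared here. In brain it was 3.17 (control) and 3.12 (with IRP1) in replicate 1 and 7.52 and 7.32 in replicate 2, so the brain replicates, which also enter the model's variance, did not hold the same RNA.

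The duodenum takes up iron, lipids, sugars and amino acids through enterocytes. Iron crosses the brush border as ferrous iron, after reduction by cytochrome b reductase 1 (Cybrd1), through the divalent metal transporter Slc11a2, and leaves through ferroportin (Slc40a1) with the ferroxidase hephaestin (Heph). The liver stores iron in ferritin, makes the plasma carriers of iron, heme and hemoglobin, and secretes hepcidin (Hamp), the hormone that closes ferroportin when iron is plentiful. IRP1 and IRP2 bind iron-responsive elements in mRNAs such as those of ferritin, the transferrin receptor and ferroportin.

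The values are log2 signals of 45037 probe sets, the Affymetrix controls left out. The medians of the 4 arrays lay between 5.51 and 5.61, and values near 3 to 5 are close to the lower end of the scale. The 2 duodenum controls correlated at 0.99 across probe sets and the 2 liver controls at 0.99, while duodenum and liver arrays correlated at 0.86. The number of arrays, 2 in each group, limits the precision of every value given here. The share of all probe sets whose arrays do not overlap between the tissues is not given, so non-overlap of single genes is a description only. Differences are duodenum minus liver in log2 signal, with the standard error (SE) of a linear model fitted to all 20 arrays, and a call is an adjusted p below 0.05. In whole tissue, fewer cells of a type and less RNA of a gene per cell cannot be told apart.

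The expression of 7108 probe sets (15.8% of those tested) was higher in duodenum and that of 5292 (11.8%) was higher in liver. At a difference of at least 2-fold the counts were 4562 (10.1%) and 2606 (5.79%), from 3054 and 1622 genes. Large differences were frequent: 239 probe sets were called at least 32-fold higher in duodenum and 239 at least 32-fold higher in liver. The balance between the tissues depended on the scaling of the arrays. Of the calls of at least 2-fold, 63.6% were higher in duodenum in the deposited values and 54.4% after a further quantile normalization. Of all calls, the shares were 57.3% and 52.6%. When each gene was represented by its brightest probe set, 22.2% of 18193 genes were called higher in duodenum and 12.7% higher in liver. These are the shares beside which the counts of the gene lists are to be read. The median difference over these genes was 0.02.

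The marker lists followed the tissue labels. Of 22 enterocyte markers measured, 21 were higher in duodenum, with a median difference of 4.84. The brush border cadherin Cdhr2 measured 13.99 and 13.78 in duodenum and 5.22 and 6.95 in liver. The microvillus protein villin (Vil1) measured 13.13 and 13.08 against 4.56 and 7.07, and lactase (Lct) 12.29 and 12.88 against 4.996 and 6.19. For these genes every duodenum array lay above every liver array. The exception was Anpep, an aminopeptidase, whose probe set was near the lower end of the scale on all 4 arrays (4.44 to 4.74).

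Of 26 hepatocyte markers, 24 were higher in liver, with a median difference of -6.70. The fibrinogen gamma chain (Fgg) measured 5.49 and 4.51 in duodenum and 13.93 and 13.72 in liver, and the cytochrome P450 Cyp2e1 6.11 and 5.44 against 14.11 and 13.71. The 2 markers that were not called were bright in both tissues. Carbamoyl phosphate synthetase (Cps1), the entry enzyme of the urea cycle, measured 13.33 and 13.04 in duodenum and 13.73 and 13.16 in liver. Cyp3a11, a drug-metabolising cytochrome P450, measured 13.51 and 13.66 in duodenum and 13.74 and 13.36 in liver, so the arrays of both tissues overlapped.

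**Figure D1:**
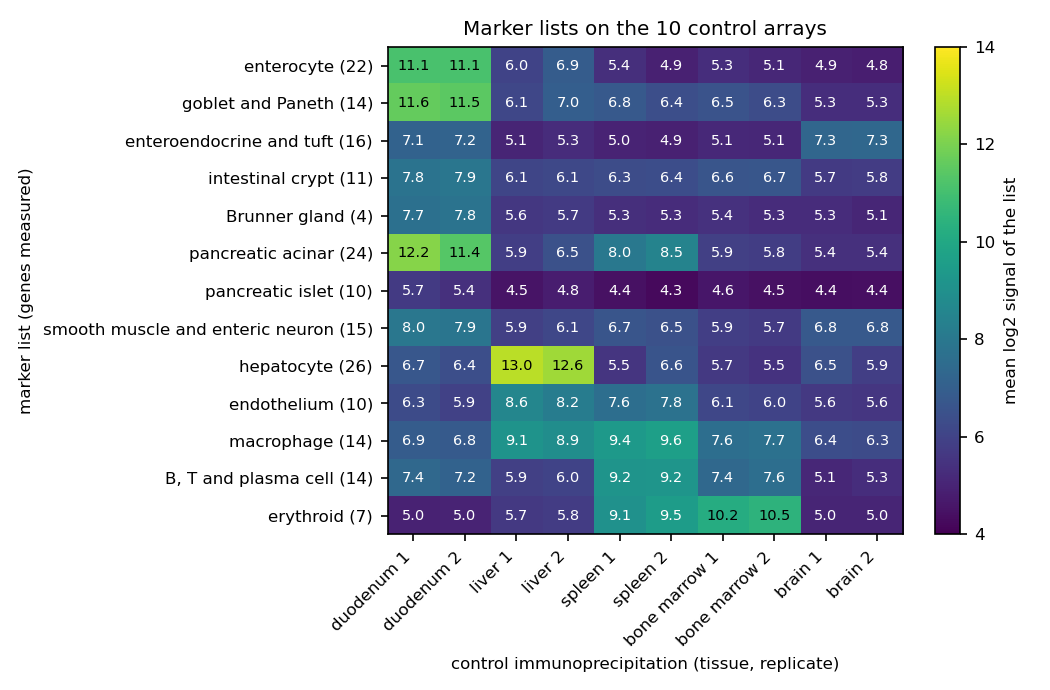
Mean log2 signal of 13 marker lists (rows, with the number of genes measured) on each of the 10 control arrays (columns). Enterocyte, goblet and Paneth markers average 11.1 to 11.6 on the duodenum arrays, acinar markers 12.2 and 11.4 there and 8.0 and 8.5 in spleen, and hepatocyte markers 12.98 and 12.59 in liver.

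Markers of the exocrine pancreas, an organ that lies in the curve of the duodenum, were among the brightest signals of the duodenum arrays. Of 24 acinar markers, 22 were higher in duodenum, with a median difference of 6.59. Elastase 3b (Cela3b), a digestive protease, measured 15.08 and 14.24 in duodenum and 5.22 and 5.59 in liver by its brightest probe set, a difference of 9.25 ± 0.34 (SE, adjusted p = 2.08e-12). Carboxypeptidase A1 (Cpa1) measured 14.35 and 13.10 against 5.51 and 6.14, and chymotrypsinogen B1 (Ctrb1) 14.01 and 13.17 against 5.57 and 6.10. The acinar transcription factors Ptf1a (6.50 and 5.25 against 4.87 and 5.31) and Rbpjl (5.85 and 5.89 against 5.85 and 6.57) were not called.

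The acinar signal differed between the duodenum replicates. Its list mean was 12.2 in replicate 1 and 11.4 in replicate 2, the median gene was 0.87 lower in replicate 2, and 22 of the 24 genes were lower there, while the enterocyte list mean was 11.1 on both arrays. The spleen controls also carried acinar signal, with list means of 8.0 and 8.5, whereas bone marrow and brain lay between 5.4 and 5.9. Without duodenum replicate 1, 20 acinar genes were called higher in duodenum. Of the 10 islet markers, 5 were higher in duodenum. Islet amyloid polypeptide (Iapp), secreted with insulin, measured 8.43 and 7.10 in duodenum and 3.90 and 4.15 in liver. Glucagon (Gcg), which gut endocrine cells also make, measured 5.96 and 5.76 against 3.75 and 3.79. Insulin 2 (Ins2) measured 8.37 and 7.04 against 6.17 and 6.57, and its call was lost without duodenum replicate 1 (difference 0.67) or liver replicate 1 (1.14). The part of pancreatic RNA in the duodenum values of genes that both organs express was not tested.

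The liver replicates differed in intestinal and acinar signal. The enterocyte list mean was 6.0 in control liver replicate 1 and 6.9 in replicate 2, and 19 of 22 genes were higher in replicate 2. Villin and Krt20, the keratin of mature enterocytes, were 4.56 and 4.98 in replicate 1 and 7.07 and 7.40 in replicate 2. The replicates of the liver reactions with IRP1 differed the same way for 19 of the 22 genes. Of the acinar genes, 22 of 24 were higher in control liver replicate 2, by a median of 0.43 over the list. All 26 hepatocyte markers were lower in control replicate 2, by a median of 0.40, whereas in the liver reactions with IRP1 all 26 were higher in replicate 2, by a median of 0.26. The fall in control replicate 2 was not particular to hepatocyte genes. Median changes there were -0.51 for respiratory chain, -0.43 for reference and -0.42 for endothelial genes. The standard deviation over all probe sets was 2.11 on control liver replicate 1 and 1.99 on replicate 2. The cause was not tested. Without liver replicate 2 the number of enterocyte genes called stayed at 21. Among counts above 1, those it moved by over 1.5 times were of genes that most cells use, given with their lists. Counts of 1 also moved. The single crypt, lymphoid and antimicrobial genes higher in liver and the single fatty acid oxidation gene higher in duodenum lost their calls, and the adipocyte count in liver rose. Across 165 probe sets restricted to the duodenum, described below, the median signal was 4.88 in liver replicate 1 and 5.71 in liver replicate 2, and 59 of them were at least 1 log2 unit higher in replicate 2, against 0.409% of all probe sets.

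**Figure D2:**
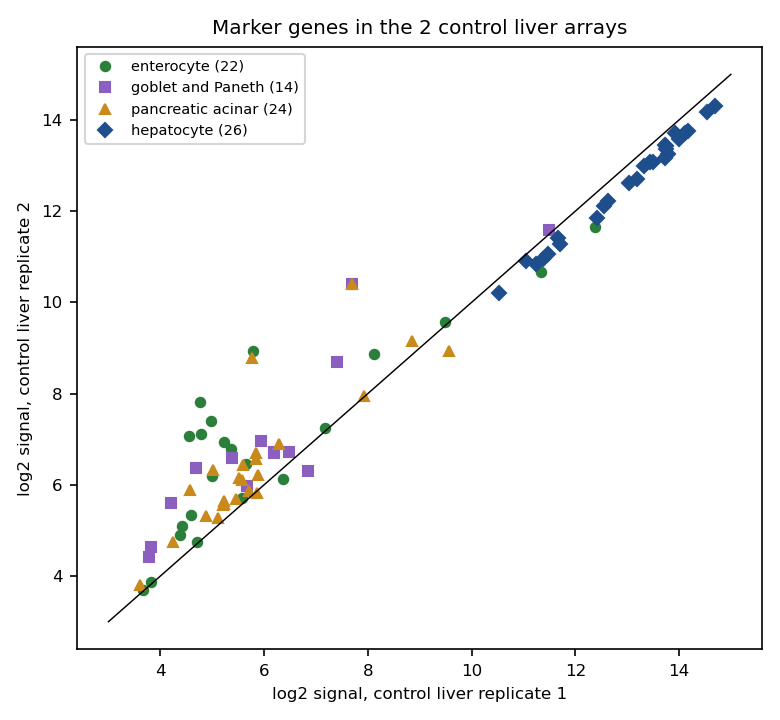
Log2 signal of marker genes in control liver replicate 1 (x axis) and replicate 2 (y axis), with the line of equal signal. Of the enterocyte genes 19 of 22 lie above the line, among them villin at 4.56 and 7.07, as do 22 of 24 acinar genes, and the 26 hepatocyte genes lie below it.

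By the size of the difference, the 15 genes highest in duodenum over liver were Cela3b, Clps, 2210010C04Rik, Prss2, Clca1, Cpb1, Reg3b, Ang4, Itln1, Sycn, Ctrl, Zg16, Cpa1, Clca4b and Olfm4. Cela3b, Clps (colipase, a cofactor of pancreatic lipase), Prss2 (a trypsinogen), Cpb1, Sycn, Ctrl, Zg16 and Cpa1 are on the acinar list. Zg16 is on the goblet and Paneth list as well. 2210010C04Rik is not on the acinar list, but its spleen controls were 10.42 and 11.63, against 10.74 and 11.30 for Prss2. The count of acinar genes among the 15 therefore rests on the list as written. Clca1, a goblet cell product, measured 13.40 and 12.79 in duodenum and 3.82 and 4.64 in liver, a 467-fold difference. The Paneth cell protein angiogenin 4 (Ang4) measured 13.008 and 13.003 against 4.21 and 5.59. Olfactomedin 4 (Olfm4), made by crypt base cells, measured 11.96 and 12.21 against 3.96 and 4.54. The antibacterial lectin Reg3b measured 13.75 and 13.11 against 4.41 and 5.91. For each of these 4 genes every duodenum array lay more than 7 log2 units above every liver array. Non-overlap was part of the rule that chose the 15 genes.

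The 15 genes highest in liver over duodenum were Tdo2, Kng1, Fgg, Pon1, Hpx, Fgb, Arg1, Fga, Akr1c6, Elovl2, Plg, Bhmt, Uox, Pzp and Cyp2d10. Tryptophan dioxygenase (Tdo2), which opens the tryptophan ring, measured 3.61 and 3.32 in duodenum and 12.72 and 11.996 in liver, a difference of -8.89 ± 0.26 (SE, adjusted p = 1.74e-13). Kininogen (Kng1), the precursor of bradykinin, measured 4.39 and 3.95 against 13.24 and 12.83. Paraoxonase 1 (Pon1), an esterase carried on high-density lipoprotein, measured 4.85 and 4.31 against 13.58 and 13.16. Urate oxidase (Uox), which rodents keep and which breaks down uric acid, measured 5.47 and 5.22 against 13.88 and 13.57. The duodenum values of these 4 genes lay between 3.32 and 5.47, near the lower end of the scale.

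Tissue restriction was described over all 5 tissues of the series, as a lower array of the tissue at least 4 log2 units above the highest control array of the other 4. The duodenum held 165 such probe sets from 137 genes, led by Clca1, 2010106E10Rik, Ang4, Itln1, Anxa13, Mep1b, Tff2, Cybrd1, Tmem236 and Cdhr2. Trefoil factor 2 (Tff2), a product of Brunner's glands, measured 12.86 and 13.38 in duodenum and between 5.02 and 5.84 in the other control arrays. Of the acinar list, 5 of 24 genes met the rule, and of the enterocyte list 12 of 22. Liver held 209 such probe sets from 168 genes, led by Arg1, Cyp2d10, Bhmt2, Tdo2, Slc38a4, Ces1c, Fgb, Mat1a, Mtarc1 and Igfbp1. Of the 45 plasma protein genes measured, 32 met the liver rule.

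Within the genes of iron absorption, Cybrd1, Heph and Slc11a2 had the largest differences. Of 14 measured, 10 were higher in duodenum and 1 higher in liver, with a median difference of 2.69. Cybrd1, the ferric reductase of the brush border, measured 13.23 and 13.10 in duodenum and 4.48 and 6.20 in liver, a difference of 7.83 ± 0.54 (SE, 227-fold, adjusted p = 4.97e-09). Heph measured 11.35 and 11.20 against 4.13 and 4.24, a difference of 7.09 ± 0.22 (SE, 136-fold, adjusted p = 4.02e-13). Slc11a2 measured 12.87 and 12.53 against 7.46 and 7.43, a difference of 5.26 ± 0.25 (SE, 38.3-fold, adjusted p = 3.82e-11). The 4 probe sets of Slc11a2 differed in size, from 2.09 to 5.63, and all were called. In each of these 3 genes the tissues did not overlap.

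Ferroportin, the only known cellular iron exporter, was bright in both tissues. Slc40a1 measured 13.69 and 13.61 in duodenum and 11.36 and 11.26 in liver, a difference of 2.34 ± 0.27 (SE, 5.08-fold, adjusted p = 3.24e-06), and 3.54 by a second probe set. The proton-coupled folate transporter Slc46a1, also described as a heme carrier, measured 11.35 and 11.12 against 7.74 and 7.77. Ankrd37, a target of hypoxia-inducible factors, measured 10.09 and 10.41 against 6.55 and 6.72. The ferritin receptor of autophagy Ncoa4 (12.15 and 12.02 against 9.64 and 8.94), the copper pump Atp7a (9.22 and 9.72 against 7.07 and 6.25) and the heme exporter Flvcr1 (8.50 and 9.04 against 6.33 and 6.05) were higher in duodenum by 2.59 to 2.81. Of the iron chaperones, Pcbp1 was higher in duodenum by 0.88 (12.75 and 12.87 against 12.13 and 11.73), a call lost without liver replicate 2, without duodenum replicate 2 and after quantile normalization, and Pcbp2 differed by 0.05 (11.24 and 11.13 against 11.24 and 11.02) and was not called. Steap2 (difference -0.62) and the copper transporter Slc31a1 (0.36) were not called either. After quantile normalization Pcbp2 was called higher in liver (-0.51). Heme oxygenase 1 (Hmox1), which frees iron from heme, was the 1 gene of the list higher in liver, at 5.59 and 5.64 in duodenum and 6.74 and 6.38 in liver.

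**Figure D3:**
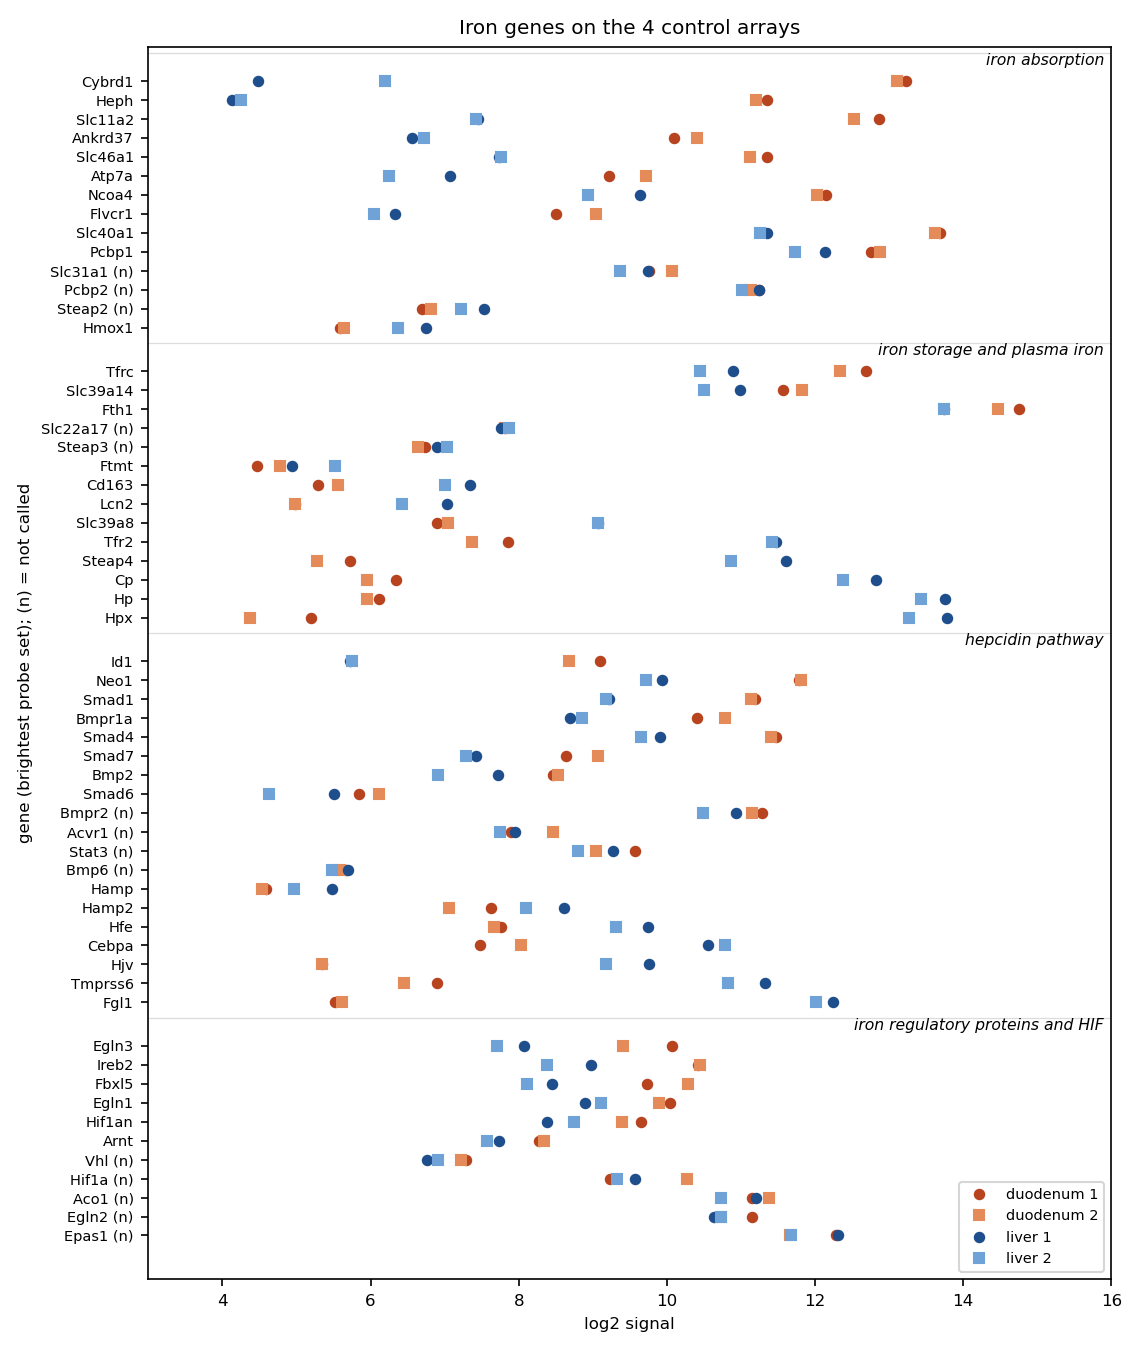
Log2 signal (x axis) of the genes of the 4 iron lists (rows, grouped by list and ordered by difference) on the 2 duodenum and 2 liver control arrays. Cybrd1, Heph and Slc11a2 at the top of the first group are 5.26 to 7.83 higher in duodenum, Hpx and Hp 7.56 to 8.74 higher in liver, and Epas1 and Aco1 overlap between the tissues.

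Genes of iron storage and plasma iron went the other way on balance: 3 of 14 were higher in duodenum and 9 higher in liver, with a median difference of -1.74. Hemopexin (Hpx), which binds free heme, measured 5.20 and 4.38 in duodenum and 13.79 and 13.26 in liver. Haptoglobin (Hp), which binds free hemoglobin, measured 6.11 and 5.95 against 13.76 and 13.43. Ceruloplasmin (Cp), the plasma ferroxidase and relative of hephaestin, measured 6.35 and 5.95 against 12.83 and 12.37. All 8 probe sets of Cp were called higher in liver, with differences from -6.63 to -1.03. The ferroxidase pair thus ran in opposite directions, Heph 7.09 higher in duodenum and Cp 6.46 higher in liver.

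The metalloreductase Steap4 measured 5.73 and 5.27 in duodenum and 11.61 and 10.87 in liver. Transferrin receptor 2 (Tfr2), the iron sensor of hepatocytes, measured 7.85 and 7.37 against 11.47 and 11.42, and by another probe set 5.68 and 5.10 against 12.97 and 12.76. The zinc and iron importer Slc39a8 differed by -2.10, and the hemoglobin scavenger receptor Cd163 of macrophages by -1.74. Lcn2, a siderophore binder, differed by -1.75 and mitochondrial ferritin (Ftmt) by -0.61, and both calls were lost without duodenum replicate 1. The Lcn2 call was also lost without duodenum replicate 2 or liver replicate 1, and the Ftmt call without liver replicate 2. Steap3 (-0.28) and Slc22a17 (0.01) were not called.

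Transferrin receptor 1 (Tfrc), which takes up transferrin-bound iron, measured 12.69 and 12.34 in duodenum and 10.89 and 10.44 in liver, a difference of 1.84 ± 0.28 (SE, adjusted p = 6.24e-05). Its other 2 probe sets were dimmer, from 3.98 to 6.93, and were not called. Ferritin heavy chain (Fth1) measured 14.76 and 14.47 against 13.74 and 13.74, a difference of 0.87 ± 0.23 (SE, adjusted p = 0.00896), and 1.63 by a second probe set. The importer of non-transferrin-bound iron Slc39a14 measured 11.56 and 11.83 against 10.99 and 10.50, a difference of 0.95. After quantile normalization the differences were 0.23 for Fth1 and 0.34 for Slc39a14 and neither was called, which left 1 gene of the list higher in duodenum and 8 higher in liver. Without duodenum replicate 1 the Fth1 call was also lost (0.73).

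Of the 19 genes of the hepcidin pathway, 8 were higher in duodenum, 7 higher in liver and 4 not called. Hamp itself lay near the lower end of the scale in both tissues, at 4.59 and 4.53 in duodenum and 5.48 and 4.97 in liver. The difference of -0.67 ± 0.19 (SE, adjusted p = 0.0131) was called, but not by the second Hamp probe set (-0.46, adjusted p = 0.11), nor without either duodenum array or without liver replicate 1. Its paralog Hamp2 measured 7.62 and 7.06 against 8.62 and 8.10, by 1 probe set of 2, and this call was lost without duodenum replicate 2 or liver replicate 1. The paralogs are near-identical in sequence, so the split of signal between their probe sets is uncertain.

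Several regulators of hepcidin transcription were called higher in liver. Hemojuvelin (Hjv), the co-receptor of bone morphogenetic proteins, measured 5.35 and 5.35 in duodenum and 9.76 and 9.18 in liver, a difference of -4.12 ± 0.20 (SE, adjusted p = 6.2e-11). The protease matriptase-2 (Tmprss6), which cleaves hemojuvelin, measured 6.90 and 6.45 against 11.33 and 10.83. Hfe, the protein altered in hereditary hemochromatosis, measured 7.77 and 7.66 against 9.74 and 9.31. The transcription factor Cebpa measured 7.47 and 8.02 against 10.56 and 10.79. Fgl1, a liver-secreted protein, had the largest difference of the list (5.52 and 5.62 against 12.24 and 12.02).

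The 8 genes higher in duodenum were the receptor Bmpr1a (difference 1.82), the hemojuvelin-binding receptor neogenin (Neo1, 1.97), the signal carriers Smad1 (1.96) and Smad4 (1.66), the inhibitors Smad7 (1.499) and Smad6 (0.91), the ligand Bmp2 (1.18) and the target Id1 (3.16). Id1 measured 9.10 and 8.67 in duodenum and 5.72 and 5.74 in liver. The calls of Bmp2 and Smad6 were lost without liver replicate 2, and that of Smad6 also without duodenum replicate 2. The ligand Bmp6 was near 5.5 on every array (5.67 and 5.59 against 5.69 and 5.47) and was not called, as were Acvr1 (0.33), Bmpr2 (0.50) and Stat3 (0.26).

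Of 11 iron regulatory and hypoxia-sensing genes, 6 were higher in duodenum and none in liver. IRP2 (Ireb2) measured 10.42 and 10.44 in duodenum and 8.97 and 8.38 in liver, a difference of 1.76 ± 0.26 (SE, adjusted p = 5.6e-05), and Fbxl5, which marks IRP2 for breakdown, 9.73 and 10.28 against 8.45 and 8.11. For IRP1 itself (Aco1) the probe sets disagreed: the brightest overlapped (11.15 and 11.37 against 11.21 and 10.74, not called) and another was higher in liver by 0.66 (adjusted p = 0.0256). The hypoxia-inducible factor of iron absorption, Epas1, overlapped, at 12.28 and 11.66 in duodenum and 12.31 and 11.67 in liver, a difference of -0.02 ± 0.34 (SE). Among the prolyl hydroxylases that mark these factors, Egln3 (1.85) and Egln1 (0.97) were higher in duodenum and Egln2 (0.25) was not called. Hif1an (0.95) and Arnt (0.66) were called. The Hif1an call was lost without duodenum replicate 1 or liver replicate 1, and the Arnt call without any 1 of the 4 arrays. The list count was 4 without duodenum replicate 1, without liver replicate 1 and after quantile normalization. Hif1a (0.30) and Vhl (0.41) were not called.

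Of 12 genes of heme synthesis and breakdown, 7 were higher in liver and none in duodenum. The erythroid synthase Alas2 measured 5.02 and 4.96 in duodenum and 7.90 and 7.65 in liver, while spleen and bone marrow, which make red cells, held 11.57 to 12.72. The other erythroid markers differed little: of 7 measured, Alas2 and Klf1 (-0.85) were called. Coproporphyrinogen oxidase (Cpox) differed by -1.82, biliverdin reductase B (Blvrb) by -1.81 and Alad, which joins the precursors of the porphyrin ring, by -1.40. The housekeeping synthase Alas1 was not called (difference 0.17).

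Most genes of nutrient absorption were higher in duodenum. Of 23 nutrient transporters, 18 were higher in duodenum and 1 in liver. The proline carrier Slc6a20a measured 10.24 and 10.70 in duodenum and 4.20 and 3.51 in liver. The cystine carrier Slc7a9 measured 12.54 and 12.48 against 4.93 and 7.09, and the sodium-glucose carrier Slc5a1 12.56 and 12.31 against 4.79 and 7.11. The member higher in liver was the vitamin C carrier Slc23a1, at 4.89 and 5.49 against 8.42 and 7.41, named after its values were seen. Of 15 brush border hydrolases, 11 were higher in duodenum, among them the metalloprotease Mep1b (12.75 and 12.24 against 4.43 and 5.10).

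Of 11 calcium and vitamin D genes, 6 were higher in duodenum and 3 in liver. The calcium-binding protein S100g measured 11.31 and 10.51 in duodenum and 4.03 and 4.80 in liver, the vitamin D receptor (Vdr) 11.21 and 10.46 against 5.08 and 5.70, and the calcium channel Trpv6 10.54 and 10.13 against 6.31 and 6.69. The 3 higher in liver were the vitamin D hydroxylases Cyp27a1 (8.23 and 8.08 against 11.76 and 11.22) and Cyp2r1 (-3.08) and the receptor partner Rxra (-0.68), the last 2 named after their values were seen. Of 14 zinc and copper genes, 8 were higher in duodenum, and 5 after quantile normalization. The manganese exporter Slc30a10 measured 11.81 and 11.70 against 7.91 and 8.16.

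Genes of lipid handling differed in both directions. The sterol transporter Npc1l1, the target of ezetimibe, measured 11.25 and 11.50 in duodenum and 4.76 and 4.98 in liver, and Mogat2, which rebuilds triglyceride from absorbed fat, 11.08 and 10.84 against 5.65 and 6.46. The apolipoproteins Apoa2 (6.70 and 6.45 against 13.35 and 12.92), Apoa5 (6.44 and 6.02 against 13.07 and 12.70) and Apoc1 (4.47 and 4.60 against 9.86 and 9.95) were higher in liver. Apolipoprotein B (Apob), the backbone of both chylomicrons and very-low-density lipoprotein, was bright and overlapping, at 13.45 and 13.46 against 13.79 and 13.19. Apoa1 (14.56 and 14.37 against 14.34 and 13.95) and the fatty acid binder Fabp1 (14.39 and 14.28 against 14.11 and 13.76) were not called either. The SE of Fabp1 was 1.21, in a model that pools the spread over all tissues, and its brain controls were 8.80 and 4.18. Over the list, 12 of 28 genes were higher in duodenum and 8 in liver, and after quantile normalization the counts were 10 and 11.

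**Figure D4:**
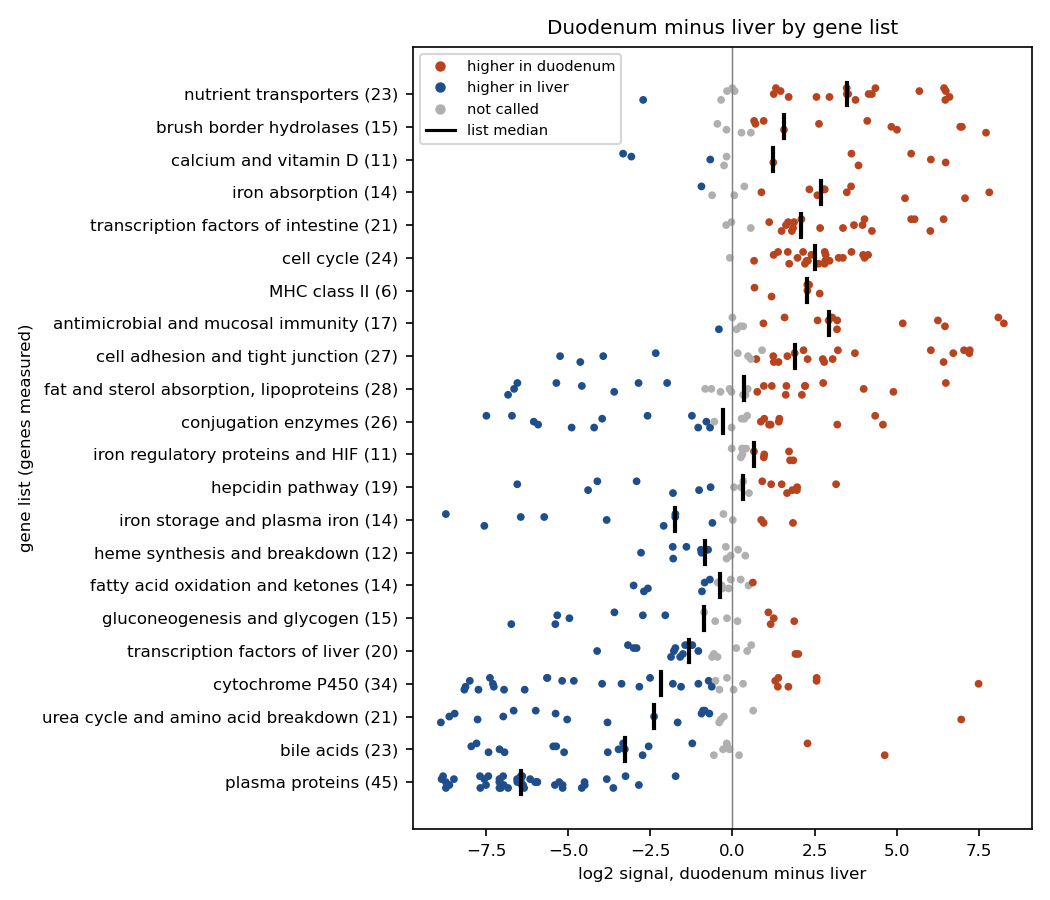
Difference in log2 signal, duodenum minus liver (x axis), of each measured gene in 22 lists (rows, with the number of genes). Red points were called higher in duodenum, blue points higher in liver, grey points were not called, and the bar is the list median, which runs from 3.48 for nutrient transporters to -6.45 for plasma proteins.

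All 45 plasma protein genes measured were higher in liver, with a median difference of -6.45. Plasminogen (Plg), the precursor of the clot-dissolving protease, measured 5.63 and 5.21 in duodenum and 14.10 and 13.72 in liver. The fibrinogen chains Fga, Fgb and Fgg differed by -8.63, -8.74 and -8.82. The smallest difference was that of the acute-phase protein Orm2 (-1.73). Hepatocyte signal differed between the duodenum arrays for albumin (Alb, named after its values were seen), at 9.10 in replicate 1 and 6.76 in replicate 2. The list mean of the hepatocyte markers was 6.7 and 6.4.

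Nitrogen metabolism held a pair of paralogs in opposite directions. Arginase 1 (Arg1), the last enzyme of the urea cycle, measured 4.53 and 4.08 in duodenum and 13.26 and 12.61 in liver, a 397-fold difference. Arginase 2 (Arg2), its mitochondrial paralog, measured 11.82 and 11.84 against 4.32 and 5.40, a 126-fold difference the other way. The tissues did not overlap for either gene, and both differences were found in the reactions with IRP1 too (-8.27 and 6.85). Of the 21 genes of the list 16 were higher in liver, and Arg2 was the 1 higher in duodenum. Of the early urea cycle enzymes, Cps1 was not called (-0.26), and Otc, which makes citrulline, was higher in liver by a small difference (10.29 and 10.84 against 11.47 and 11.07, -0.70, adjusted p = 0.043).

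Of 15 genes of gluconeogenesis and glycogen, 7 were higher in liver and 4 in duodenum. Cytosolic phosphoenolpyruvate carboxykinase (Pck1) measured 4.12 and 4.43 in duodenum and 11.15 and 10.88 in liver, and glycogen synthase 2 (Gys2) 4.72 and 4.52 against 10.02 and 9.16. The glucose-6-phosphatase G6pc had duodenum replicates of 7.72 and 10.32 against 11.79 and 11.72, and its call was lost without duodenum replicate 1. Ketohexokinase (Khk), the first enzyme of fructose breakdown, was bright in both tissues, at 12.98 and 13.21 against 13.01 and 12.89.

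Of 23 bile acid genes measured, 15 were higher in liver and 2 in duodenum, the liver group led by the uptake carrier Slc10a1 (4.29 and 4.03 against 12.34 and 11.91) and the bile salt export pump Abcb11 (4.20 and 3.87 against 12.05 and 11.63). The 2 higher in duodenum were the subunits of the basolateral exporter of enterocytes, Slc51a (10.58 and 10.34 against 5.91 and 5.73) and Slc51b (8.69 and 8.30 against 6.19 and 6.23). The ileal uptake carrier Slc10a2, the ileal binder Fabp6 and the ileal hormone Fgf15 were between 3.31 and 5.15 on all 4 arrays. These 5 genes were named after their values were seen.

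Among 34 cytochrome P450 genes, 22 were higher in liver and 7 in duodenum. Cyp2c65 stood apart in duodenum, at 12.26 and 12.60 against 4.24 and 5.62, a 181-fold difference, while Cyp2c37 of the same subfamily measured 4.23 and 3.89 against 12.28 and 11.86. Probe sets of this family can share sequence, so a reading from a near-identical member is uncertain. Of 26 conjugation enzymes 9 were higher in duodenum and 12 in liver. The sulfotransferases ran both ways, Sult2b1 4.59 higher in duodenum and Sult1a1 4.90 higher in liver.

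Cell types other than the main epithelia also differed. Of 14 goblet and Paneth genes, 12 were higher in duodenum, among them the mucin Muc2 (12.59 and 12.63 against 4.69 and 6.37). Of 16 enteroendocrine and tuft genes, 11 were higher in duodenum, led by chromogranin B (Chgb, 12.31 and 11.27 against 4.56 and 5.69) and the incretin Gip (10.25 and 10.16 against 5.12 and 5.44). The stem cell marker Lgr5 was not called (6.35 and 6.33 against 6.19 and 6.42). Of 11 crypt genes 8 were higher in duodenum, and 3 where every probe set of a gene had to be called the same way. The crypt gene Tnfrsf19, named after its values were seen, was higher in liver (-0.51). Its call was lost without duodenum replicate 2, without either liver array and after quantile normalization. Of 24 cell cycle genes, 23 were higher in duodenum, with a median difference of 2.51. Where every probe set of a gene had to be called the same way, 14 were. Topoisomerase 2a (Top2a) measured 9.75 and 9.63 against 5.58 and 5.54, and Cdc20, an activator of mitotic exit, 10.41 and 10.29 against 6.50 and 6.13.

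The sinusoid and Kupffer cell genes were higher in liver, 9 of 10 on the endothelial list and 9 of 14 on the macrophage list. The sinusoidal lectin Clec4g measured 5.23 and 5.33 in duodenum and 11.07 and 10.66 in liver, and the scavenger receptor Stab2 5.27 and 4.60 against 10.14 and 9.41. Vsig4, the complement receptor of Kupffer cells, measured 4.24 and 4.24 against 10.34 and 9.66. The macrophage growth factor receptor Csf1r was bright on both sides, at 11.76 and 11.37 against 12.27 and 11.89, and was not called. After quantile normalization all 14 macrophage genes were called higher in liver.

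Of 14 B, T and plasma cell genes, 7 were higher in duodenum, 1 was higher in liver and 6 were not called, with a median difference of 0.81. The immunoglobulin joining chain (Jchain) of plasma cells measured 13.59 and 13.17 in duodenum and 6.28 and 7.25 in liver, and granzyme A (Gzma) 11.12 and 10.94 against 6.16 and 6.48. The gene higher in liver was the T cell co-receptor chain Cd8a (8.16 and 8.22 against 8.93 and 10.10), a call lost without either duodenum array or without liver replicate 2. All 6 genes of MHC class II presentation were higher in duodenum by 0.67 to 2.66, with H2-Ab1 at 11.74 and 11.69 against 9.27 and 8.84. The smallest, that of their activator Ciita, lost its call without duodenum replicate 1 or either liver array. The lectin Reg3g differed between the duodenum replicates, 12.11 and 9.59, and remained at 3.95 and 4.79 in liver. The chemokine Ccl25, which draws lymphocytes to the small intestine, measured 12.30 and 11.94 against 5.76 and 5.95. Of 15 smooth muscle and enteric neuron genes 9, among them Synpo2 of smooth muscle (10.05 and 9.43 against 5.05 and 5.64), were higher in duodenum. Where every probe set of a gene had to be called the same way, 4 were.

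Junction genes differed in both directions. Of 27, 19 were higher in duodenum and 4 in liver. Claudin 7 (Cldn7) measured 13.59 and 13.30 in duodenum and 5.94 and 7.49 in liver, and the adhesion protein Epcam 13.66 and 13.64 against 5.94 and 7.24. The 4 higher in liver were N-cadherin (Cdh2, 3.90 and 4.15 against 9.42 and 9.14), claudin 1 (Cldn1, 4.24 and 4.26 against 9.02 and 8.77), Gjb2 (-3.94) and Gjb1 (-2.34), the last 2 being gap junction proteins. Cdh2, Cldn1, Gjb2 and Gjb1 were named after their values were seen.

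Of 21 transcription factors of the intestine, 18 were higher in duodenum and none in liver. Where every probe set of a gene had to be called the same way, 10 were higher in duodenum. Klf5, a factor of proliferating crypt cells, measured 12.26 and 12.05 in duodenum and 5.31 and 6.12 in liver, and Hnf4g 8.83 and 9.10 against 3.40 and 3.43. The paralog Hnf4a was not called, at 12.34 and 12.03 against 12.02 and 11.45. The caudal factor Cdx2, named after its values were seen, measured 10.26 and 10.08 against 5.88 and 6.53. Creb3l3, Hoxb6 and Hoxb7 were not called. Of 20 factors of the liver, 12 were higher in liver, led by Prox1 (3.74 and 3.33 against 7.76 and 7.55) and Atf5 (5.84 and 5.57 against 8.91 and 8.88). The 2 of that list higher in duodenum were Tbx3 (2.01) and Esrra (1.92).

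**Figure D5:**
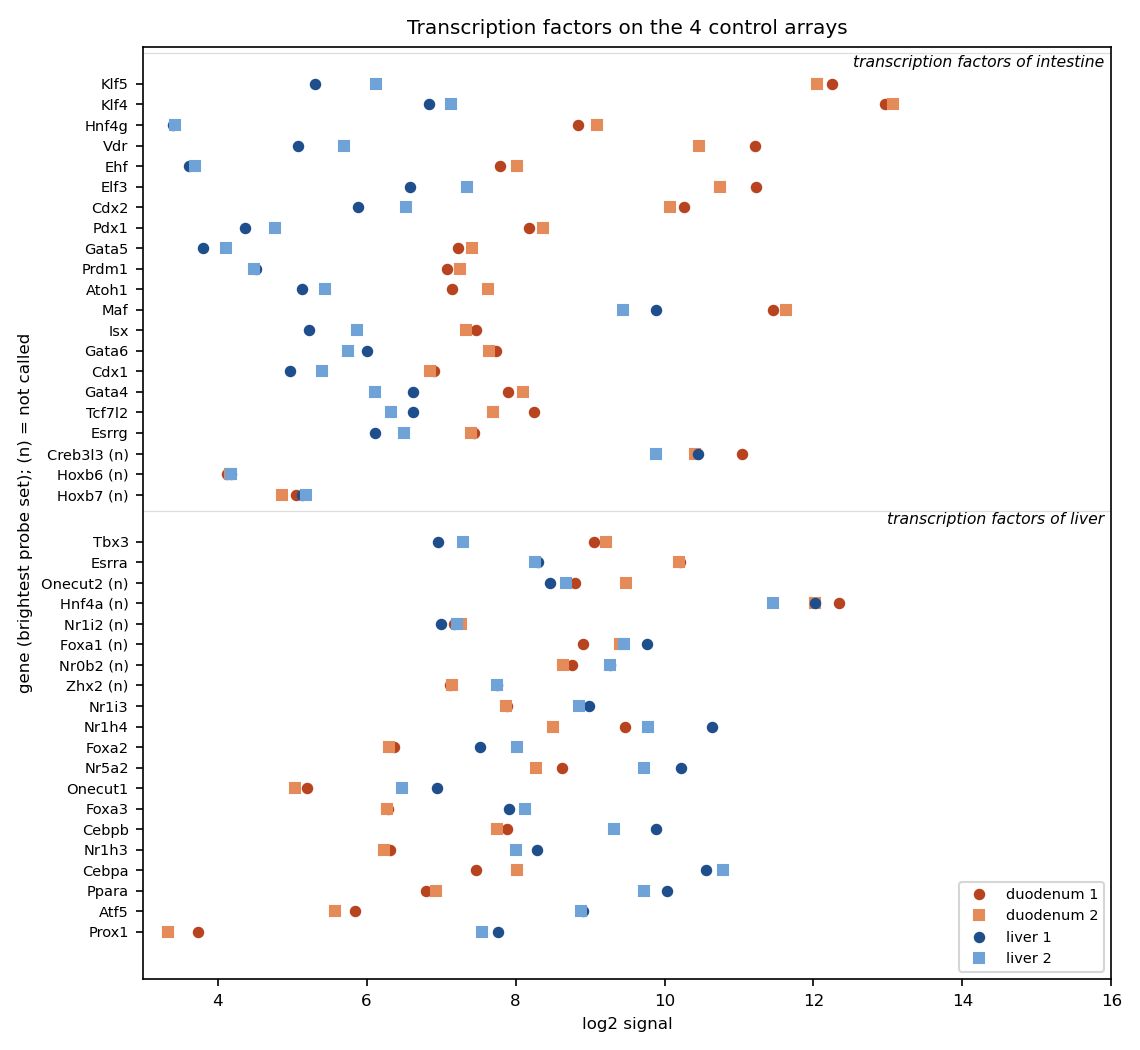
Log2 signal (x axis) of the intestine and liver transcription factors (rows, by list and by difference) on the 4 control arrays. Klf5, Klf4 and Hnf4g are 5.55 to 6.44 higher in duodenum, Prox1 is 4.13 higher in liver, and the Hnf4a points of both tissues lie between 11.45 and 12.34.

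The promoters were searched for the core letters of 4 factor families. RefSeq promoters (GRCm38.p6, 250 bases before to 50 after the start) were matched to 14452 of the 18193 genes by symbol. The C/EBP letters TTGCNNAA, on either strand, were in 26.8% of the 138 promoters of liver-restricted genes and 13.4% of those of genes called at least 2-fold higher in liver. The shares were 7% in the 100 promoters of duodenum-restricted genes, 7.41% in those higher in duodenum, 9.04% in all genes tested and 10.8% in all 27025 promoters. The HNF4 letters CAAAGTCCA were in 2.17% and 4% of the liver-restricted and duodenum-restricted promoters, against 0.464% of genes tested and 0.477% of all promoters. The first 2 shares rest on 3 and 4 promoters. The HNF4 letters were in 1.11% of those higher in liver and 0.777% of those higher in duodenum. The CDX letters TTTATTG were in 5.07% and 4% of the liver-restricted and duodenum-restricted promoters. They were in 3.49% of those higher in liver, 2.5% of those higher in duodenum, 3.04% of genes tested and 4.84% of all promoters. The GATA letters AGATAA were in 18.8% and 15% of the liver-restricted and duodenum-restricted promoters. Their shares were 9.36% of those higher in liver, 7% of those higher in duodenum, 8.13% of genes tested and 11.4% of all promoters. A match is a run of letters and not a measured binding site.

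The windows below are the C/EBP matches nearest the start in 4 plasma protein genes, shown because their genes were among the 15 highest in liver. The capitals mark the match, each window reads along the strand of its gene, and all lie upstream of the start.
Fgb: ctgggaagatgTTGCTCAAatgataaagca
Fga: gctacagagaaTTGAGCAAgagtttctggg
Pon1: tttcctcctgcTTGCTTAAtcccctccaga
Hpx: tggctggaaatTTGCTGAAgggggtagggg
They lie at chr3:83049925-83049954 (minus strand), chr3:83026007-83026036 (plus strand), chr6:5194001-5194030 (minus strand) and chr7:105600298-105600327 (minus strand). Fga holds the letters on the reverse strand. For duodenum, the CDX letters are shown for 2 of the 10 leading restricted genes, though they were no more frequent in duodenum genes than in liver genes. Both are on the reverse strand, at chrX:112495151-112495180 and chr2:14174454-14174483 (plus strand for both).
2010106E10Rik: gtacaggcaacCAATAAAtctacaatgaaa
Tmem236: catatgagggtCAATAAAagaataaaatcc

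A set of genes was bright in both tissues. A mean of at least 12 in each was reached by 258 probe sets, of which 119 were called higher in duodenum, 12 higher in liver and 127 not. The 10 genes with the smallest differences were Sf1, Elovl6, Psmd11, Aldh9a1, Apob, Cyp3a11, Scp2, Idh1, Lamp2 and Abcd3. Elovl6, which lengthens fatty acids, measured 12.23 and 11.83 in duodenum and 12.33 and 11.76 in liver. The peroxisomal transporter Abcd3 measured 13.19 and 13.12 against 13.33 and 12.81. Their likeness depends on the scaling: the median difference of the 258 probe sets was 0.67 in the deposited values and 0.02 after quantile normalization, when 39 were higher in duodenum and 54 in liver. Of the 10 genes, Elovl6, Psmd11, Aldh9a1, Scp2, Idh1, Lamp2 and Abcd3 were then called higher in liver.

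The same holds for genes that most cells use. Of 24 respiratory chain genes, 16 were called higher in duodenum with a median difference of 0.90, and after quantile normalization 7 were, with a median of 0.30. Without liver replicate 2, 7 were called, and without duodenum replicate 1, 10. Of 11 reference genes, 7 were called (median 0.94) and 4 after quantile normalization (0.30), and 3 without liver replicate 2 or without duodenum replicate 1. Of 10 ribosomal protein genes, 5 were called (median 0.70) and 1 after quantile normalization (0.11), and 2 without either duodenum array or without liver replicate 2. No direction is drawn for these lists.

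The tissues were compared the same way in the reactions that held IRP1. Of the 12400 probe sets called in the controls, 10212 (82.4%) were called the same way there and 4 the opposite way. Of all probe sets tested, 8968 were called higher in duodenum and 7188 higher in liver in the reactions with IRP1. RNA was pooled by tissue, and no label states whether these reactions drew on other pools than the controls. The shared calls are therefore not taken as a repeat in other animals. For mRNAs with iron-responsive elements the differences were Slc40a1 1.29 with IRP1 against 2.34 in the controls, Tfrc 0.97 against 1.84, Slc11a2 4.30 against 5.26 and Fth1 0.87 in both. None of these 4 genes passed the test of the difference between the reactions, which 2 probe sets passed after adjustment and 2672 at an unadjusted p below 0.05. The test of the difference between the reactions has no replicate block, and the deviations of same-numbered control and IRP1 arrays correlated at 0.27 in duodenum and -0.07 in liver.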

How the data were processed

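Signals of 20 arrays (5 tissues, with and without recombinant IRP1, 2 replicates each) were used as deposited. The authors deposited log2 values per probe set. The submitters' processing notes name RMA, MAS5 and GCOS, and which of them made the table is not given in the sources used here. The 64 Affymetrix control probe sets were left out, leaving 45037, of which 34945 had 1 gene symbol in the platform annotation, 932 several and 9160 none.

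Differences were tested in limma 3.58.1 (R 4.3.3, lmFit and eBayes), with the 20 arrays as 10 groups (residual degrees of freedom 10, prior 6.14). The contrast was control duodenum minus control liver, two-sided, with Benjamini-Hochberg adjustment over all 45037 probe sets. Folds are on this log2 scale. The test was checked on simulated data. Within a gene list, each gene was read from its brightest probe set, by the mean of the 4 control arrays. As an alternative, every probe set of a gene had to be called in the same direction. The members and lists were chosen with earlier results of these data known. Genes named were the 15 with the largest called difference of at least 2-fold in each direction without overlap, all iron genes, up to 6 per other list with the largest differences, members that differed least where a contrast is described, the 10 least different bright genes and up to 10 restricted genes per tissue. Alternatives were other scalings, filters, sample sets, array weights, variance priors, a 2-fold null, blocks by replicate number and leaving out each array. Replicate numbers were not taken to pair duodenum with liver, and the check is given with the other settings. Promoters came from RefSeq, taking the first listed per symbol, and 28 genes called both ways were left out of the 2-fold sets.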

Additional observations from a re-analysis of the deposited data

Results flagged for a closer look

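The difference between duodenum and liver itself differed between the reactions with IRP1 and the controls for 2 probe sets. For Lnx1, an E3 ubiquitin ligase, the tissue difference was 2.08 ± 0.29 (SE, adjusted p = 0.040 by limma) larger with IRP1. Its signal was 5.32 and 5.03 in control duodenum, 7.62 and 6.95 in duodenum with IRP1, 3.93 and 3.92 in control liver and 4.04 and 3.87 in liver with IRP1. The duodenum arrays with IRP1 thus lay above the other 6. For a probe set without a symbol the change was 2.81 ± 0.38 (SE, adjusted p = 0.040 by limma), and it came with the liver arrays, at 9.40 and 8.89 in the controls and 6.61 and 6.41 with IRP1, against 4.61 and 4.87 in control duodenum and 4.42 and 5.41 in duodenum with IRP1.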

How the results depend on the processing

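The direction of the large differences held, and the counts depended on the threshold and on single arrays. A test against a 2-fold change called 1980 probe sets higher in duodenum and 1253 higher in liver, in place of 7108 and 5292. Leaving out 1 array at a time gave 5046 to 6424 higher in duodenum and 3505 to 4615 higher in liver, the 3505 without duodenum replicate 2. With a replicate block the counts were 7389 and 5433. The numbers were not taken to pair the tissues, since the deviations of same-numbered duodenum and liver controls correlated at 0.047. Of 292 named probe sets, 251 were called and 195 kept their call in every alternative run. List counts rest on the brightest probe set of each gene. Where every probe set had to be called the same way, 20 enterocyte, 24 hepatocyte and 45 plasma protein genes were still called. In the hepcidin pathway 4 genes were then higher in duodenum and 5 in liver, and 3 iron regulatory and hypoxia-sensing genes were higher in duodenum. Quantile normalization turned the sign of Abcd3 (-0.55), Aldh9a1 (-0.62), Idh1 (-0.63), Lamp2 (-0.64), Pcbp2 (-0.51) and Psmd11 (-0.66). None of these was called in the deposited values, and all 6 were called higher in liver after it (adjusted p by limma 0.0038 to 0.030). Elovl6 (-0.67) and Scp2 (-0.72) were also called then. The cause was not tested. With 2 arrays a group, and values near 3 to 5 close to the lower end of the scale, small differences of dim genes such as Hamp are the least certain.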

Other observations

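Of 14 genes of fatty acid oxidation and ketone formation, 6 were higher in liver and 1 in duodenum, and after quantile normalization 10 and none. The call in duodenum was also lost without either duodenum array or without liver replicate 2. Ppara, the nuclear receptor that governs this pathway, led the list. Of 11 stellate cell and fibroblast genes, 5 were higher in duodenum and 2 in liver. Of 8 adipocyte genes 1 was called in each direction. Of the 17 antimicrobial and mucosal immunity genes, 12 were higher in duodenum and 1 in liver. The call in liver was lost without any 1 of the 4 arrays. All 5 genes of the cholangiocyte list were higher in duodenum (Epcam, Cftr, Krt19, Krt7 and Sox9). The Sox9 call was lost without duodenum replicate 2 (difference 0.77). Where every probe set of a gene had to be called the same way, 2 of the 5 were. The 5 are epithelial genes that the intestine also expresses, so the list does not mark bile ducts in this comparison.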
